A study of Mus musculus with 12 samples.

Results

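The blood-brain barrier is formed by the endothelial cells of brain capillaries. Tight junction strands of claudins and occludin close the gap between neighbouring cells, cytoplasmic scaffold proteins anchor the strands, and cadherins hold the membranes together beneath them. Efflux pumps of the ATP-binding cassette family return drugs from the endothelial cell to the blood, and the lipid carrier Mfsd2a moves lysophosphatidylcholine that carries docosahexaenoic acid into the brain and limits vesicle traffic across the cell.

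Transcripts of 10 genes of this barrier were followed in mouse striatum: Cldn5, Ocln, Tjp1, Esam, Jam2, Cdh5, Abcb1a, Abcg2, Abcc4 and Mfsd2a. They were selected by gene symbol from the platform annotation, and all 10 were measured, each by 1 probe set, among 21780 probe sets that carry exactly 1 symbol and cover 19935 genes. The list was drawn up after differences of these arrays from saline were known, among them a fall of Cldn5 in both comparisons with saline. The values and adjusted p-values of the 10 genes are therefore a description of the arrays and no independent evidence about the list.

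Male Swiss-Albino mice 2 months old went through 6 induction trials on alternate days. The butyrate-morphine group (labelled ButMorphine, 3 arrays) received sodium butyrate at 300 mg/kg, an inhibitor of histone deacetylases, and then morphine at 20 mg/kg on each trial. The morphine group (SalMorphine, 3 arrays) received saline and then morphine at 20 mg/kg, and the saline group (Saline, 6 arrays) received vehicle only. A challenge came 7 days later, morphine at 20 mg/kg in the first 2 groups, and striatal RNA was taken 1 h after it. For the saline group the labels give saline as the challenge in one field and morphine for all animals in another, so a difference from saline holds the challenge injection only if the first is right. Each array, an Affymetrix Mouse Gene 1.0 ST chip, carried pooled RNA of 4 animals. No label says that the pools of a group were treated separately, and the p-values cover the spread from pool to pool, which may be technical.

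All values are log2 differences from a baseline set by the authors. The saline arrays centre on 0, and the labels do not say which baseline each treated array was set against, so a treated value is read here against the saline mean of 0 on the assumption that the baseline was saline. Saline arrays 1 and 2, 3 and 4, and 5 and 6 mirror each other in every row, so the saline mean is 0 and its 6 arrays hold 3 independent values per gene. The fit counts them as 6, which makes its p-values against saline too small. Each pair centres on 0, so differences between pairs are removed and the saline range is narrowed. Treated arrays therefore lie outside that range more easily, and the shared spread of the fit takes in the narrowed values. Leaving out 1 array of each pair does not undo this. With 1 array of each mirror pair, 135 probe sets were called, against 512 with all arrays, in butyrate-morphine against saline, and 102, against 534, in morphine against saline. Centring also removed each gene's level, so levels were not compared between genes and the presence of striatal or endothelial markers was not checked. Array medians over the tested probe sets lay between -0.0153 and 0.0136.

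The 10 genes moved in different directions. Against saline, Cldn5 was lower and Mfsd2a higher in both morphine groups, Abcg2 and Abcc4 were higher after butyrate and morphine, and the other 6 genes did not pass the test in either comparison. Promoter sequences of the 2 genes that passed in both comparisons are printed first. They are the RefSeq windows of assembly GRCm38.p6, from 250 bases before to 50 bases after the gene's start, which the table holds for 7 of the 10 genes. The Cldn5 window is chr16:18776597-18776896 on the + strand and the Mfsd2a window is chr4:122961139-122961438 on the - strand. Capitals mark matches on either strand to short core motifs of transcription factor families.
Cldn5: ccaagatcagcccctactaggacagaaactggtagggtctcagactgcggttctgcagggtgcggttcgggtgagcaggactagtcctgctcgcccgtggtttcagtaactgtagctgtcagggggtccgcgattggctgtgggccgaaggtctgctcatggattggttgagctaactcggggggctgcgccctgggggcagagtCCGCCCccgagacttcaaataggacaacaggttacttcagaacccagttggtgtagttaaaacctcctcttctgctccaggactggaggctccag
Mfsd2a: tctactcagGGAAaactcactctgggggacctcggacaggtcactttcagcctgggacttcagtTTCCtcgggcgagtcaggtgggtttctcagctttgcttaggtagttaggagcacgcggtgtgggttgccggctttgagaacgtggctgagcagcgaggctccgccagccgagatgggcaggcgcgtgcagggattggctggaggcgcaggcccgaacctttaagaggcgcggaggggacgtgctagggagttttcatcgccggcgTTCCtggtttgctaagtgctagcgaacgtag

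The 5 motifs searched were the ETS core GGAA, the forkhead core TGTTT, the SOX core ACAAT, the glucocorticoid receptor core TGTTCT and the Sp/KLF core GGGCGG. The Cldn5 window held 1 match, to the Sp/KLF core, which 35.7% of the 32851 promoter windows in the table also hold. The Mfsd2a window held 3 matches to the ETS core, which 96% of windows hold, and 0 to the others. Neither window held the glucocorticoid receptor core, found in 19% of windows, the forkhead core (50.5%) or the SOX core (31%). A match or its lack describes these letters only. The GC content was 58.3% for Cldn5 and 60.3% for Mfsd2a, against a median of 52.7% over all windows.

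**Figure D1:**
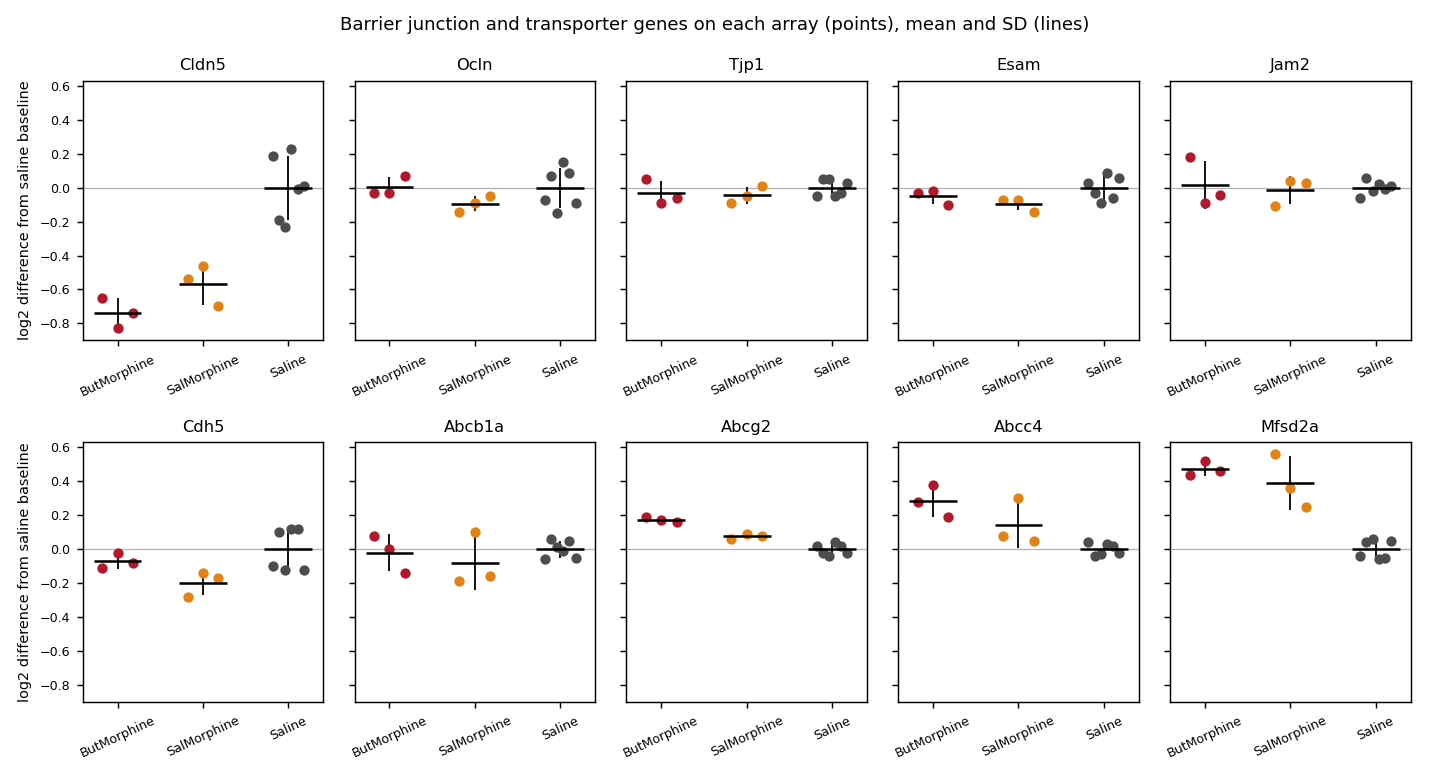
Each panel plots 1 gene, with the log2 difference from the saline baseline on the vertical axis and the ButMorphine, SalMorphine and Saline arrays as points, the horizontal line marking the mean and the vertical line the SD. Cldn5 lies between -0.83 and -0.46 on the 6 morphine-treated arrays and Mfsd2a between 0.25 and 0.56, outside the range of the saline arrays in each case.

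Of the tight junction transcripts, that of Cldn5, the most abundant claudin of brain capillaries, showed the lowest values. It read -0.65, -0.83 and -0.74 on the 3 butyrate-morphine arrays. On the 3 morphine arrays it read -0.54, -0.46 and -0.70, and over the 6 saline arrays it ran from -0.23 through a median of 0 to 0.23. Every array of either morphine group lay below every saline array, and Cldn5 also had the widest saline range of the 10 genes.

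In butyrate-morphine against saline, Cldn5 averaged -0.74 ± 0.09 (SD, n = 3), which is 0.598 of the saline level with a 95% confidence interval of 0.518 to 0.691 (limma, adjusted p = 0.00118 over all tested probe sets). In morphine against saline it averaged -0.57 ± 0.12 (SD, n = 3), which is 0.674 of the saline level with an interval of 0.583 to 0.778 (adjusted p = 0.00834). Only 1 probe set had a lower difference than Cldn5 in butyrate-morphine against saline, and 9 did in morphine against saline. The call in morphine against saline was lost without morphine array 3 (adjusted p = 0.0557), with 1 array of each saline mirror pair (0.0527), with saline arrays 1 to 3 only (0.119) and after quantile normalization (0.492), which also ended the butyrate-morphine call (0.116).

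The transcript of occludin (Ocln), the other strand protein, did not pass. It read -0.03, -0.03 and 0.07 on the butyrate-morphine arrays and -0.14, -0.09 and -0.05 on the morphine arrays. Its saline arrays ran from -0.15 through 0 to 0.15 and took in all 6 of those values. The difference was 0.00 (95% interval -0.13 to 0.14) for butyrate-morphine against saline and -0.09 (-0.23 to 0.04) for morphine against saline. The interval in each comparison lay wholly above that of Cldn5, whose log2 intervals were -0.95 to -0.53 and -0.78 to -0.36.

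Transcripts of the scaffold and the immunoglobulin-like adhesion proteins differed little from saline. Tjp1 (ZO-1), which links the strands to actin, was at -0.04 in both comparisons, with adjusted p = 0.733 in each. Esam, an endothelial adhesion molecule of the junction, read -0.03, -0.02 and -0.10 on the butyrate-morphine arrays and -0.07, -0.07 and -0.14 on the morphine arrays, against -0.09 to 0.09 in saline. Its difference was -0.05 ± 0.04 (SE) with butyrate and -0.09 ± 0.04 (SE) without, and neither passed (adjusted p = 0.611 and 0.317). Jam2, a junctional adhesion molecule of endothelial and other cells, was at 0.02 and -0.01 and was the most scattered of these on the butyrate-morphine arrays, at 0.18, -0.09 and -0.04.

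Cdh5 (VE-cadherin), the endothelial cadherin of the adherens junction, read -0.11, -0.02 and -0.08 on the butyrate-morphine arrays. On the morphine arrays it read -0.28, -0.14 and -0.17, and on the saline arrays from -0.12 through 0 to 0.12. The morphine arrays all lay below saline while the butyrate-morphine arrays overlapped it. The difference of -0.20 ± 0.07 (SE) for morphine against saline, 0.872 of the saline level, did not pass (unadjusted p = 0.00992, adjusted p = 0.145), nor did -0.07 ± 0.07 (SE) for butyrate-morphine against saline (adjusted p = 0.63).

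Of the efflux pumps, Abcg2 and Abcc4 passed in butyrate-morphine against saline, and no pump passed in morphine against saline. Differences between the pumps were not tested. Abcb1a (P-glycoprotein), the pump for which morphine itself is a known substrate, was at 0.08, 0.00 and -0.14 on the butyrate-morphine arrays and at -0.19, 0.10 and -0.16 on the morphine arrays. Its saline arrays ran from -0.06 through 0 to 0.06, so the treated arrays fell on both sides of saline. The difference was -0.02 (95% interval -0.16 to 0.12) in butyrate-morphine against saline and -0.08 (-0.22 to 0.06) in morphine against saline. Its close paralog Abcb1b, measured by a probe set of its own and named as its paralog, was at 0.13 and 0.06 and did not pass either (adjusted p = 0.295 and 0.716). Whether the probes tell the paralogs apart was not tested.

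Abcg2 (breast cancer resistance protein), the other main drug pump of the luminal membrane, read 0.19, 0.17 and 0.16 on the butyrate-morphine arrays. It read 0.06, 0.09 and 0.08 on the morphine arrays, and from -0.04 through 0 to 0.04 on the saline arrays. The 3 groups did not overlap, and the steps between them were small. Butyrate-morphine was 1.13-fold above saline (0.17 ± 0.02, SD, n = 3, adjusted p = 0.00982), and morphine was 1.06-fold above saline without passing (adjusted p = 0.213). The butyrate-morphine call was lost without butyrate-morphine array 1 (adjusted p = 0.0602), with saline arrays 1 to 3 only (0.0793) or 4 to 6 only (0.191), with 1 array of each mirror pair (0.0906) and after quantile normalization (0.0996).

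Abcc4 (Mrp4), an exporter of organic anions and cyclic nucleotides also found in choroid plexus epithelium, read 0.28, 0.38 and 0.19 on the butyrate-morphine arrays. Of the morphine arrays, array 2 stood at 0.30 while arrays 1 and 3 read 0.08 and 0.05, and saline ran from -0.04 through 0 to 0.04. Butyrate-morphine was 1.22-fold above saline (0.28 ± 0.09, SD, n = 3, adjusted p = 0.0166). Morphine was 1.1-fold above saline and did not pass (adjusted p = 0.216). The call was lost without butyrate-morphine array 1 (adjusted p = 0.0719) or array 2 (0.0988), with either set of 3 saline arrays (0.151 and 0.196), with 1 array of each mirror pair (0.121), after quantile normalization (0.0658) and with no saline array in the fit (0.0564), the last chosen after seeing the data.

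Mfsd2a moved opposite to Cldn5. It read 0.44, 0.52 and 0.46 on the butyrate-morphine arrays and 0.56, 0.36 and 0.25 on the morphine arrays. The saline arrays ran from -0.06 through 0 to 0.06, so all 6 treated arrays lay above them, with a wider spread after morphine alone. Butyrate-morphine was 1.39-fold above saline (0.47 ± 0.04, SD, n = 3, 95% interval 1.28 to 1.51, adjusted p = 0.000546). Morphine was 1.31-fold above saline (0.39 ± 0.15, SD, n = 3, 1.2 to 1.42, adjusted p = 0.00298). The morphine call was lost with saline arrays 1 to 3 only (adjusted p = 0.0704) and after quantile normalization (0.0529). It passed in all 12 fits that left out 1 array, as did the butyrate-morphine call.

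**Figure D2:**
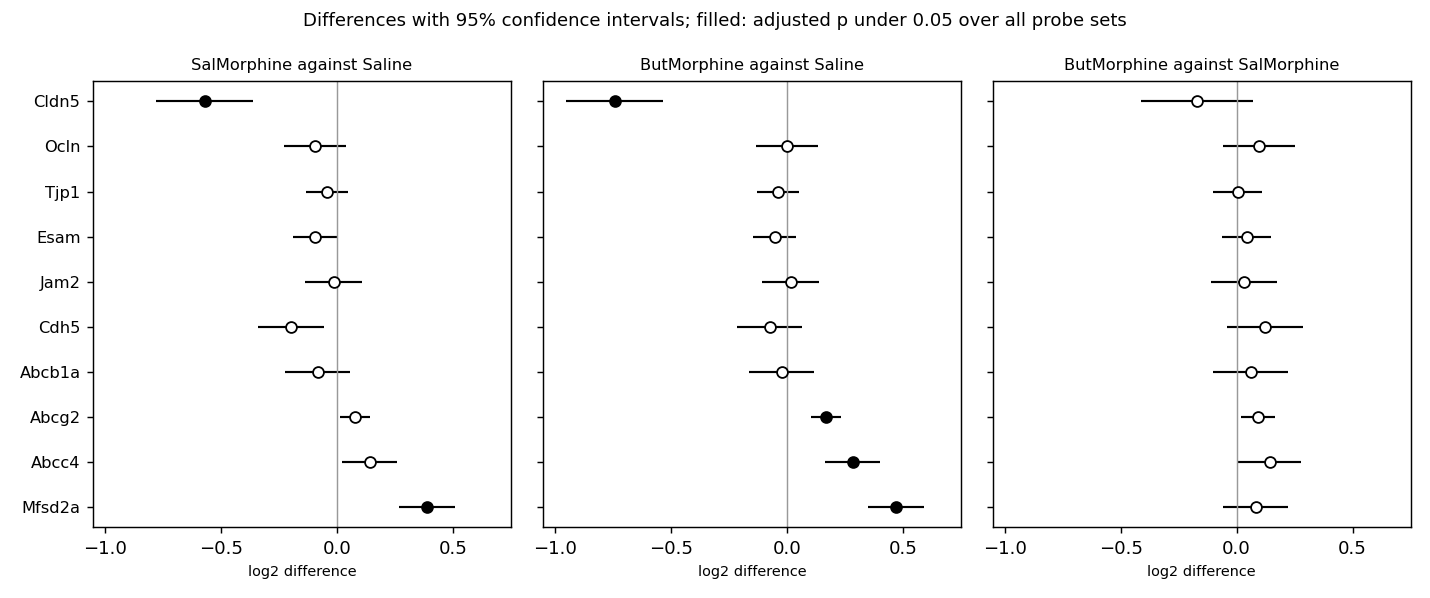
The log2 difference of each gene (point) with its 95% confidence interval (line) is drawn for the 3 comparisons, with filled points where the adjusted p over all probe sets was under 0.05. Cldn5 is filled at -0.57 and -0.74 and Mfsd2a at 0.39 and 0.47 against Saline, Abcg2 and Abcc4 are filled in ButMorphine against Saline, and the panel of ButMorphine against SalMorphine holds open points only.

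Counted over the 10 genes, butyrate-morphine against saline had 1 lower and 3 higher, beside 0.592% lower and 1.76% higher of all tested probe sets. Morphine against saline had 1 lower and 1 higher, beside 1.15% lower and 1.3% higher of all probe sets. All arrays of butyrate-morphine lay below all saline arrays for 1 gene and above them for 3, beside 4.57% and 7.22% of all probe sets, and all arrays of morphine lay below saline for 2 and above for 3, beside 4.17% and 3.93%. Since the genes were chosen with these results known, nothing is read from the counts. The median difference of the 10 genes was -0.01 in butyrate-morphine against saline and -0.06 in morphine against saline, beside 0.01 and 0.00 over all probe sets. Both comparisons share the 6 saline arrays, so their values are given side by side only.

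**Figure D3:**
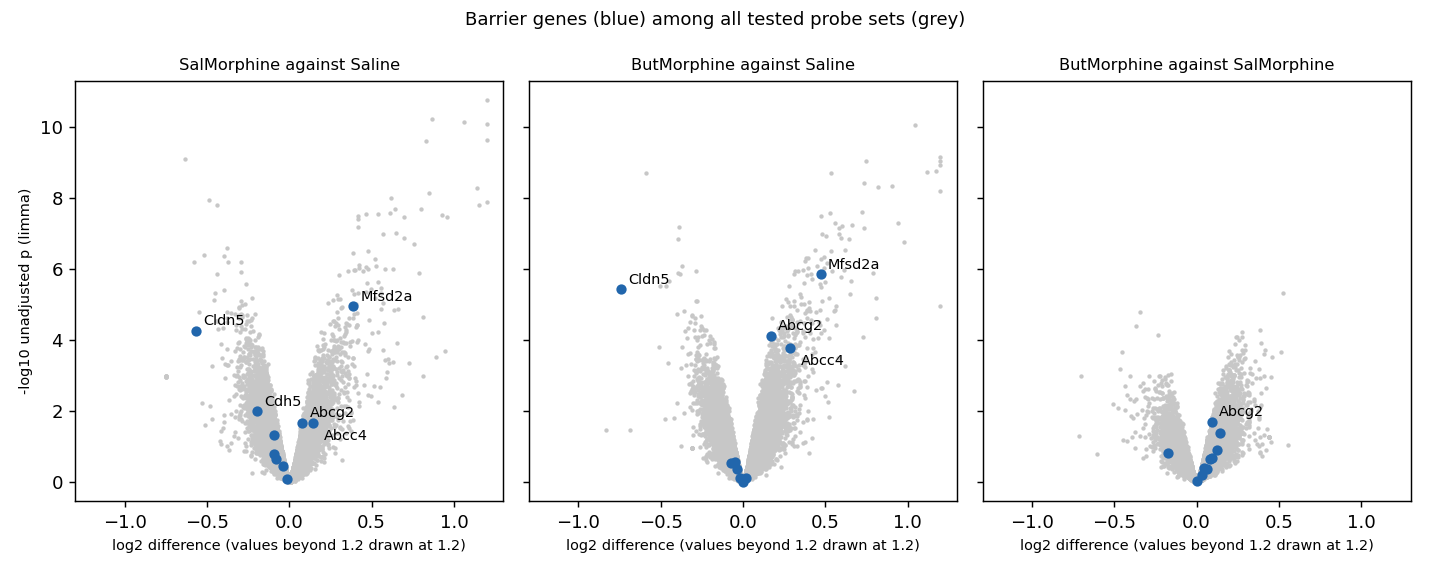
For each comparison the log2 difference (horizontal axis) is plotted against -log10 of limma's unadjusted p (vertical axis) for all tested probe sets in grey and the 10 barrier genes in blue. Cldn5 stands at the left edge of the cloud and Mfsd2a on its right side in both comparisons with Saline, while in ButMorphine against SalMorphine the 10 genes lie within it.

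Butyrate-morphine against morphine, the comparison that differs by the butyrate given during induction, called 0 of the 10 genes and 0% of probe sets in either direction by limma. At an unadjusted p under 0.05 there were 1898 probe sets, and among the 10 genes Abcg2 and Abcc4. The arrays of the 2 groups did not overlap for Ocln, Cdh5 and Abcg2, all 3 higher with butyrate, beside 7.73% higher and 3.11% lower of all probe sets. The Cldn5 difference was -0.17 (95% interval -0.41 to 0.07, adjusted p = 0.71), and butyrate-morphine array 1 (-0.65) overlapped morphine array 3 (-0.70). The difference was 0.09 for Abcg2 (0.02 to 0.17, adjusted p = 0.478), 0.14 for Abcc4 (0.01 to 0.28, adjusted p = 0.546), 0.12 for Cdh5 (-0.04 to 0.29, adjusted p = 0.691) and 0.10 for Ocln (-0.06 to 0.25, adjusted p = 0.76). It was 0.08 for Mfsd2a (-0.06 to 0.22, adjusted p = 0.772).

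In pooled tissue, a smaller share of endothelial cells and less RNA per endothelial cell cannot be told apart. Whether the mix of tissue differed between the pools was not tested. General endothelial markers, not counting the 10 genes, were lower on the same arrays. The mean of 20 measured markers was -0.09, -0.11 and -0.13 on the butyrate-morphine arrays and -0.18, -0.15 and -0.15 on the morphine arrays, against -0.05 to 0.05 on the saline arrays. With 1 value per gene, 4 of the 20 fell and 0 rose in butyrate-morphine against saline (Kdr, Flt1, Tek and Eng), beside 0.637% lower and 1.85% higher of all 19935 genes. In morphine against saline 5 fell and 0 rose (the same 4 and Egfl7), beside 1.29% lower and 1.37% higher. The list's median was -0.07 in butyrate-morphine against saline and -0.15 in morphine against saline. A median below 0 was not particular to this list. It was -0.13 and -0.20 for 8 microglia markers, and -0.03 and -0.14 for 7 striatal neuron markers. For 13 pericyte and smooth muscle markers it was -0.03 and -0.02. Markers below 0 numbered 17 and 16 of 20 here, 8 and 8 of 8 for microglia and 5 and 7 of 7 for neurons. The medians of the astrocyte endfoot, choroid plexus and meningeal lists were above 0.

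Kdr, the main receptor for vascular endothelial growth factor, had the lowest values of these markers, at -0.59 with butyrate (adjusted p = 3.62e-06) and -0.64 without (adjusted p = 1.89e-06). Flt1, a second receptor for that factor, was at -0.18 and -0.30, Tek, the angiopoietin receptor, at -0.28 and -0.38, and Egfl7, a secreted vessel factor, at -0.16 (adjusted p = 0.0556, not passing) and -0.21. Eng, an endothelial co-receptor for TGF-beta that is named after its values were seen, was at -0.28 and -0.31. In butyrate-morphine against saline Flt1 was lost without butyrate-morphine array 3, Tek without array 2 or 3, and Eng without either of these or saline array 2, 3, 4 or 6 (adjusted p up to 0.172). In morphine against saline Eng was lost without morphine array 2 or saline array 2 (up to 0.0755). With 1 array of each mirror pair, Flt1, Tek and Eng were lost with butyrate (adjusted p = 0.0884, 0.0714 and 0.191), and Eng and Egfl7 without (0.169 and 0.128).

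The 10 genes were also set against this endothelial mean on the same array, as a description without a test. The marker Kdr itself was at -0.59 with butyrate and -0.64 without, near Cldn5 (-0.74 and -0.57), so the ratio does not set Cldn5 apart from every endothelial marker. The Cldn5 difference from the mean was -0.56, -0.72 and -0.61 on the butyrate-morphine arrays and -0.37, -0.32 and -0.55 on the morphine arrays, against -0.20 to 0.20 on the saline arrays. Cdh5 relative to the same mean was -0.03, 0.09 and 0.05 on the butyrate-morphine arrays and -0.11, 0.00 and -0.01 on the morphine arrays, within its saline range of -0.13 to 0.13. Mfsd2a relative to the mean was 0.52 to 0.63 on the butyrate-morphine arrays and 0.41 to 0.73 on the morphine arrays, above its saline range of -0.11 to 0.11. Abcg2 relative to the mean was 0.28 to 0.29 and 0.23 to 0.24, and Abcc4 0.32 to 0.49 and 0.20 to 0.44. The endothelial mean was below 0 on the treated arrays, so subtracting it raised every gene there. Ocln, Tjp1, Esam, Jam2 and Abcb1a, which did not pass against saline, also averaged above 0 relative to the mean. With butyrate they averaged 0.11, 0.08, 0.06, 0.13 and 0.09, and without it 0.06, 0.12, 0.06, 0.14 and 0.08. These ratios show unequal change and no absolute level.

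**Figure D4:**
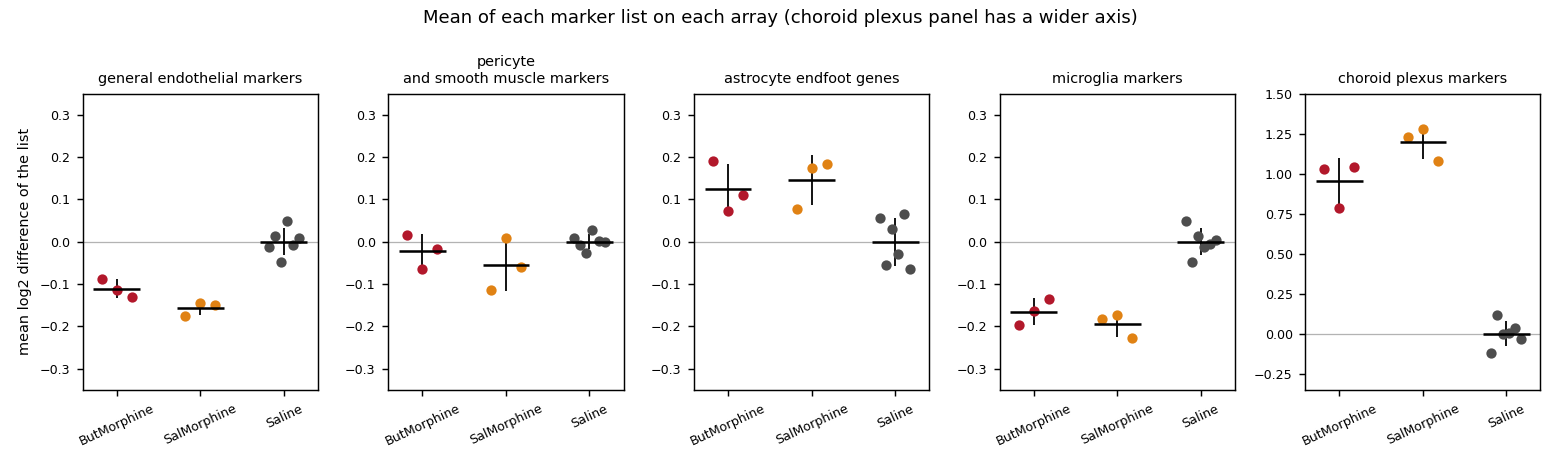
The mean log2 difference of each marker list is plotted per array for ButMorphine, SalMorphine and Saline, with lines for the mean and SD, and the choroid plexus panel has a wider vertical axis. General endothelial markers lie between -0.18 and -0.09 on the 6 morphine-treated arrays and choroid plexus markers between 0.79 and 1.28.

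Cldn5 and the endothelial mean were lower than saline on every array of both morphine groups. Choroid plexus markers were higher than saline on these same arrays. Their mean over 10 measured markers was 1.03, 0.79 and 1.04 on the butyrate-morphine arrays and 1.23, 1.28 and 1.08 on the morphine arrays, against -0.12 to 0.12 on the saline arrays. With butyrate 8 of the 10 rose and without it 9 rose, beside 1.85% and 1.37% higher of all genes. The 4 with the lowest p were Kcnj13 (2.07 and 2.58), Ttr (3.42 and 3.75), Clic6 (0.75 and 0.83) and Kl (0.94 and 1.14). The next 2 genes are named after their values were seen. The Otx2 call was lost without butyrate-morphine array 1 in butyrate-morphine against saline (adjusted p = 0.063), and the Aqp1 call passed in 4 of 12 fits without 1 array in morphine against saline (adjusted p up to 0.107). The part of this tissue in the values of Mfsd2a, Abcg2 and Abcc4 was not tested. In butyrate-morphine against morphine all 10 markers had a difference below 0, with a median of -0.23, and 0 passed. The differences of Mfsd2a, Abcg2 and Abcc4 were above 0 and did not pass. A difference above 0 was not particular to them. It held for 9 of the 10 barrier genes, and 1402 of the 1898 probe sets with an unadjusted p under 0.05 by limma were higher. With 1 array of each mirror pair, Otx2 with butyrate (adjusted p = 0.0984) and Aqp1 without (0.19) were lost.

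Among 22 further junction genes, 1 rose and 1 fell in each comparison with saline, beside 0.637% lower and 1.85% higher of all genes in butyrate-morphine against saline and 1.29% lower and 1.37% higher in morphine against saline. Nothing is read from a count of 1 among 22. Cldn1, a claudin of epithelia that include the choroid plexus, read 0.68, 0.51 and 0.59 on the butyrate-morphine arrays and 0.73, 0.38 and 0.56 on the morphine arrays, against -0.14 to 0.14 on the saline arrays. Its difference was 0.59 with butyrate (adjusted p = 0.000502) and 0.56 without (adjusted p = 0.00106), and all 6 treated arrays lay above saline. Cldn2, a claudin of choroid plexus epithelium that was placed among that tissue's markers and picked here after its values were seen, was at 0.27 and 0.42. Cldn12, another claudin transcribed in brain endothelium, was at -0.19 with butyrate (adjusted p = 0.0359) and -0.20 without (adjusted p = 0.0239). In fits that left out 1 array, the Cldn12 call passed in 5 of 12 for butyrate-morphine against saline (adjusted p up to 0.14). For morphine against saline it passed in 10 of 12 and was lost without morphine array 3 or saline array 2 (up to 0.122). Cldn12 was lost in both with 1 array of each mirror pair (adjusted p = 0.215 and 0.196). Ctnna1 (alpha-catenin) at -0.09 and -0.12 and the tricellular junction gene Lsr at -0.18 and -0.05 did not pass. The list's median was 0.01 with butyrate and 0.03 without.

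Of 28 further transporters and carriers, 2 rose and 1 fell in butyrate-morphine against saline, beside 1.85% higher and 0.637% lower of all genes. In morphine against saline 1 rose and 1 fell, beside 1.37% higher and 1.29% lower. Slc2a1 (Glut1), the glucose transporter of barrier endothelium, rose in both, reading 0.54, 0.66 and 0.54 on the butyrate-morphine arrays and 0.52, 0.51 and 0.36 on the morphine arrays, against -0.10 to 0.10 on the saline arrays. Its difference was 0.58 with butyrate (adjusted p = 5.34e-05) and 0.46 without (adjusted p = 0.000388). Slc3a2, the heavy chain of large amino acid exchangers, was at 0.14 (adjusted p = 0.0394) with butyrate and at 0.13 (adjusted p = 0.0585) without. Slc16a1, a monocarboxylate transporter, was at -0.24 (adjusted p = 0.0284) and -0.13 (adjusted p = 0.236), and the neutral amino acid transporter Slc38a5 at -0.21 (adjusted p = 0.102) and -0.29 (adjusted p = 0.0281). The calls of Slc3a2, Slc16a1 and Slc38a5 passed in 4, 6 and 6 of 12 fits that left out 1 array (adjusted p up to 0.171, 0.112 and 0.0659), and all 3 were lost with 1 array of each mirror pair (0.207, 0.0869 and 0.159). The list's median was 0.02 with butyrate and -0.01 without.

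**Figure D5:**
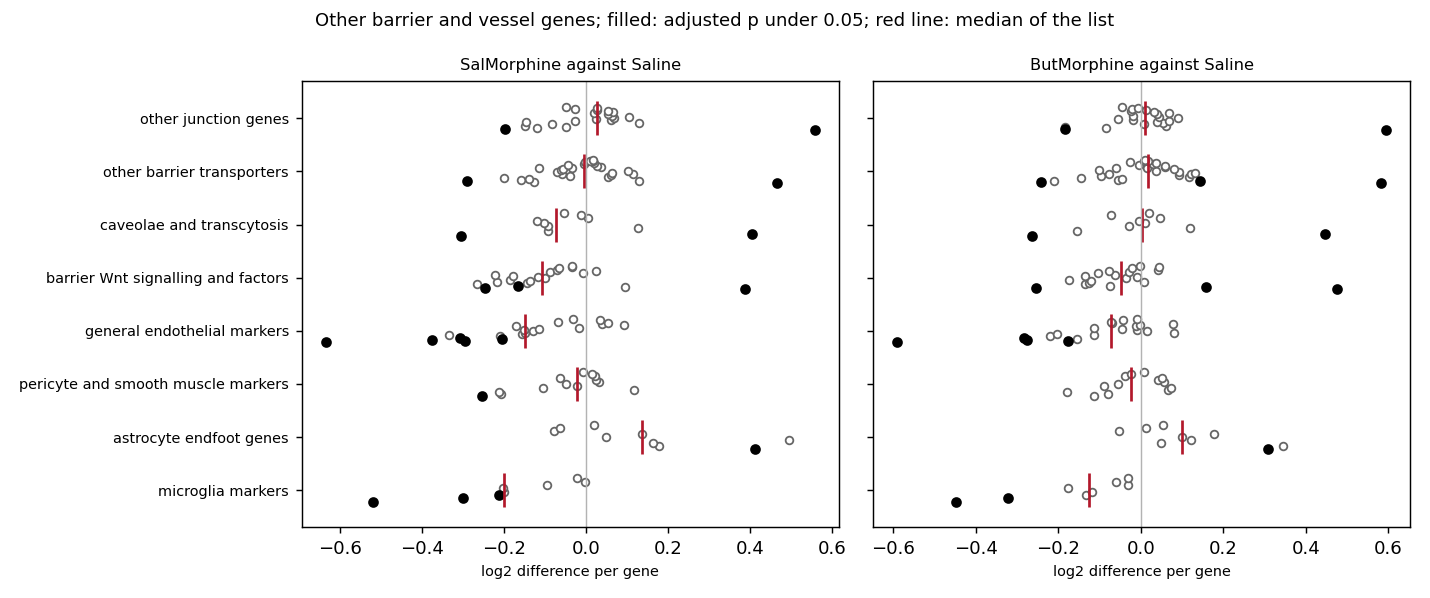
Each point is the log2 difference of 1 gene in ButMorphine or SalMorphine against Saline, by gene list, filled where the adjusted p over all genes was under 0.05, and the red line is the list's median. Most points lie near 0, with Cldn1 (0.59 and 0.56), Slc2a1 (0.58 and 0.46), Cavin2 (0.45 and 0.40) and Fzd4 (0.47 and 0.39) far to the right and Kdr far to the left.

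Caveolae carry cargo across endothelium, and Mfsd2a limits that route in brain capillaries. Of 10 genes for caveolae and transcytosis, 1 rose and 1 fell in each comparison with saline, beside 0.637% lower and 1.85% higher of all genes in butyrate-morphine against saline and 1.29% lower and 1.37% higher in morphine against saline. Both are subunits of the caveolar coat. Cavin2 read 0.59, 0.45 and 0.29 on the butyrate-morphine arrays and 0.46, 0.37 and 0.37 on the morphine arrays, against -0.13 to 0.13 on the saline arrays. Cavin3 read -0.20, -0.36 and -0.23 on the butyrate-morphine arrays and -0.35, -0.24 and -0.33 on the morphine arrays, against -0.05 to 0.05 on the saline arrays. Cavin2 (adjusted p = 0.00301 with butyrate and 0.00582 without) and Cavin3 (adjusted p = 0.00701 and 0.00255) passed in all 12 fits without 1 array in both comparisons. Cavin3 with butyrate (adjusted p = 0.0675) and Cavin2 without (0.0542) were lost with 1 array of each mirror pair. The list's median was 0.00 with butyrate and -0.07 without.

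Wnt7 ligands from neural cells, received by Fzd4 and Lrp6 with the co-activators Adgra2 and Reck, set up and maintain barrier properties in brain endothelium. Of 20 genes of this signalling and of endothelial transcription factors, 2 rose and 1 fell in butyrate-morphine against saline, beside 1.85% higher and 0.637% lower of all genes. In morphine against saline 1 rose and 2 fell, beside 1.37% higher and 1.29% lower. Fzd4 read 0.56, 0.42 and 0.44 on the butyrate-morphine arrays and 0.45, 0.36 and 0.35 on the morphine arrays, against -0.05 to 0.05 on the saline arrays. Its difference was 0.47 with butyrate (adjusted p = 3.62e-05) and 0.39 without (adjusted p = 0.000191). Apcdd1, an inhibitor of Wnt signalling that is itself a Wnt target in brain vessels, was at -0.25 in both comparisons (adjusted p = 0.00376 with butyrate and 0.00463 without). Lrp6 was at 0.16 with butyrate (adjusted p = 0.0272) and 0.10 without, and Wnt7b at -0.07 with butyrate and -0.17 without (adjusted p = 0.0318). The Lrp6 and Wnt7b calls passed in 6 and 5 of 12 fits that left out 1 array (adjusted p up to 0.133 and 0.142), and both were lost with 1 array of each mirror pair (0.0986 and 0.184). The list's median was -0.05 with butyrate and -0.11 without. In butyrate-morphine against morphine, 0 genes of these lists passed.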

How the data were processed

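Total RNA of striatum was pooled and hybridised to 12 arrays, per the labels' protocols. The deposited table of 28815 rows holds log2 differences from a baseline, centred by the authors, which no label describes. The log base was read from the values. Within each saline mirror pair the values cancel to within 1e-06. How the authors corrected background, summarised and normalized is not stated in the labels, and all 12 columns matched a sample. Rows with 1 gene symbol in the platform annotation were tested (21780), leaving out 1605 with several and 5430 with none.

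Differences were fitted by limma 3.58.1 in R 4.3.3 on all 12 arrays with 1 shared spread (9 residual degrees of freedom, 3.87 prior), and p-values were adjusted by Benjamini-Hochberg over all tested probe sets (threshold 0.05). Other genes were taken as the mean of their probe sets, adjusted over 19935 genes. No low-value filter was possible without levels, and precision is limited by the array number. The fit was tested on simulated data with the same mirroring, where false calls exceeded the nominal rate. The simulation also set the treated arrays of each replicate number against 1 saline pair, a baseline that no label gives. Its rate of false calls therefore cannot be carried over to these arrays. The members and lists were chosen with earlier results of these data known. From each other list, 2 to 4 genes with the lowest unadjusted p in either comparison with saline are named, and others are marked. Alternatives were other normalizations, variance models, feature sets, saline subsets, thresholds, the replicate number as a block and each array left out.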

Additional observations from a re-analysis of the deposited data

How the results depend on the processing

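Of 710 differences of single genes recomputed under 24 alternatives, 667 kept their direction and side of the threshold, 25 lost the call, 0 gained it and 18, of genes not called, changed sign. The 2 calls in morphine against saline became 0 with quantile normalization, 0 with saline arrays 1 to 3 only and 1 with 1 array of each saline mirror pair. The 4 calls in butyrate-morphine against saline became 1 with quantile normalization and 2 with either set of 3 saline arrays or with 1 array of each mirror pair. Quantile normalization forces saline arrays (SD over probe sets 0.052 to 0.0845) and other arrays (0.112 to 0.151) to 1 distribution. Without 1 array the counts were 1 to 2 in morphine against saline and 2 to 4 in butyrate-morphine against saline, with the lowest values without morphine array 3 and without butyrate-morphine array 1. With the replicate block the counts were 0 and 0, with Cldn5 at adjusted p = 0.0506 with butyrate and 0.129 without. No pairing of arrays by replicate number is stated in the labels. Same-numbered butyrate-morphine and morphine arrays had correlations of their deviations of -0.105, -0.267 and -0.226 over probe sets. Pairs with different numbers ran from -0.138 to 0.306. The highest value of butyrate-morphine arrays 1, 2 and 3, picked after the values were seen, was 0.156, 0.231 and 0.306, with morphine arrays 3, 1 and 2. Deviations within a group sum to 0, so low values for some pairs go with high values for others. Morphine array 2 was also at 0.28 with saline array 4 and -0.28 with saline array 3. Whether arrays of the 2 groups share a baseline or batch under other numbers was not tested. The replicate block also leaves saline arrays 4 to 6 without partners. The cause of the losses, those with quantile normalization among them, was not tested. Of the genes in the other lists called against saline, 16 of 26 with butyrate and 20 of 32 without passed with 1 array of each mirror pair, an alternative chosen for these lists after seeing the data.

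Signs that changed were Ocln in butyrate-morphine against saline, at -0.0046 with quantile normalization, -0.0053 with median centring and -0.0486 with saline arrays 4 to 6, Tjp1 in butyrate-morphine against morphine, at -0.0091, -0.0062 and -0.005 with quantile normalization, median centring and array weights, and Jam2 in morphine against saline, at 0.015 with 1 array of each mirror pair. Without 1 array, the range against saline was -0.0298 to 0.032 for Ocln with butyrate, -0.0723 to 0.0399 for Abcb1a with butyrate, -0.065 to 0.0733 for Jam2 with butyrate and -0.0414 to 0.0364 for Jam2 without. In butyrate-morphine against morphine it was -0.0364 to 0.0344 for Tjp1 and -0.0512 to 0.087 for Jam2.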

Other observations

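Other cells of the vessel wall and its surroundings were measured on the same arrays, again with 1 value per gene, beside 0.637% lower and 1.85% higher of all genes in butyrate-morphine against saline and 1.29% and 1.37% in morphine against saline. Of 13 pericyte and smooth muscle markers, 0 changed in butyrate-morphine against saline, and in morphine against saline Rgs5, a pericyte regulator of G protein signalling, fell (-0.26, adjusted p = 0.0112) and 0 rose. Vtn, vitronectin of pericytes, was at -0.08 (adjusted p = 0.519) and -0.21 (adjusted p = 0.0722). Pdgfrb, the receptor that recruits pericytes, was at -0.18 (adjusted p = 0.138) and -0.21 (adjusted p = 0.0776). Of 9 measured astrocyte endfoot genes, the connexin Gjb6 rose, at 0.31 with butyrate (adjusted p = 0.0306) and 0.41 without (adjusted p = 0.00558), and 0 fell. The Gjb6 call passed in 6 of 12 fits that left out 1 array with butyrate and in all 12 without. With 1 array of each saline mirror pair it was lost with butyrate (adjusted p = 0.137). Gfap, the astrocyte filament protein, was at 0.34 with butyrate (adjusted p = 0.0612) and 0.18 without (adjusted p = 0.364). Of 8 measured microglia markers, P2ry13 (-0.45 and -0.52) and Cx3cr1 (-0.32 and -0.30) fell in both comparisons, and Itgam fell in morphine against saline (-0.21, adjusted p = 0.0362), passing in 6 of 12 fits. Of 9 markers of meninges and perivascular fibroblasts, Igf2 rose in both (0.62 and 0.85), and Slc13a4 rose in morphine against saline (0.54, adjusted p = 0.00763) and was at 0.34 with butyrate (adjusted p = 0.073). The other markers of this list did not pass, with Dcn at 0.26 in both. Its collagens, named after their values were seen, were Col1a1 (-0.10 and -0.05), Col3a1 (-0.06 and 0.03) and Col1a2 (0.01 and 0.00). In each comparison 2 of the 9 lay below 0. Of 7 measured striatal neuron markers, 0 changed in butyrate-morphine against saline, and Drd2 (-0.16) and Pde10a (-0.17) fell in morphine against saline, passing in 5 and 9 of 12 fits. With 1 array of each mirror pair Rgs5, Itgam, Slc13a4, Drd2 and Pde10a were lost in morphine against saline (adjusted p = 0.11, 0.122, 0.0559, 0.152 and 0.198).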
